A study of Homo sapiens with 9 samples.

Results

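The integrin chains and laminin chains of A549 cells were compared after an siRNA against Nrf2. The members were taken from the array annotation as every gene whose symbol names an integrin alpha or beta chain or a laminin alpha, beta or gamma chain, and that had a probe set carrying no other gene. That gave 35 genes, 25 integrin chains and 10 laminin chains, with 95 probe sets, out of 19775 genes and 41091 single-gene probe sets. A probe set is a group of short oligonucleotides that reads 1 transcript region, and a gene was represented by its brightest probe set, by mean over the 9 arrays. ITGB6, whose 4 probe sets each carry more than 1 gene, was not analysed here, and neither were chains that no probe set of this kind names.

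A549 is an established line of human lung adenocarcinoma cells. Lipofectamine 2000 was given alone (mock), with 25 nM of an siRNA labelled NS, or with 25 nM of Nrf2 siRNA, and total RNA was taken 96 hours later from 3 biological replicates of each group. All cells therefore met the lipid reagent, and no untransfected culture was analysed here. With 1 Nrf2 siRNA and no rescue, loss of NRF2 and any other action of that siRNA cannot be told apart.

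Integrins are receptors made of an alpha and a beta chain that tie the cell to its matrix and carry signals across the membrane. The alpha chain largely sets the ligand: laminin, collagen, or proteins with the short motif arginine, glycine and aspartate (RGD). Laminins are trimers of an alpha, a beta and a gamma chain and form the first sheet of an epithelial basement membrane. NRF2, the product of NFE2L2, is a transcription factor of the oxidant response that A549 cells keep active through a defect in its inhibitor KEAP1.

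The deposited values are log2 levels, so a difference of 1 is a doubling. Array medians ran from 7.51 to 7.57, and arrays correlated across genes at 0.998 to 0.999 within groups and 0.984 to 0.994 between them. A test is limma's two-sided test of group means over all 9 arrays, with p adjusted by Benjamini-Hochberg over the 19775 genes, and "called" means an adjusted p below 0.05. An SD is over 3 arrays and an SE is the model's. Precision is set by the number of arrays, and an exact permutation test of 3 against 3 could not go below 0.1. NFE2L2, the target, was at 12.07, 11.92 and 11.98 in mock, at 12.09, 12.03 and 12.15 with NS siRNA, and at 10.12, 10.32 and 10.30 with Nrf2 siRNA. It was 3.58-fold lower than with NS siRNA (log2 difference −1.84 ± 0.06 SE, limma adjusted p = 1.92e-10) and 3.34-fold lower than in mock.

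Chains of both families moved after Nrf2 siRNA, in both directions. Against NS siRNA, 11 of the 35 chains were higher (31.4%, beside 21% of all genes), 7 were lower (20%, beside 26.6%) and 17 were not called. ITGA6, ITGB4, ITGA11, ITGB5 and ITGB8 were called at 1.5-fold or more, which is 14.3% of the chains and 9.55% of all genes. Against mock, 11 chains were higher (31.4%, beside 16.4%), 3 were lower (8.57%, beside 16.7%) and 21 were not called. ITGB8, ITGA6 and ITGB4 passed 1.5-fold there, 8.57% of the chains beside 4.87% of all genes. The count of 3 rests on single arrays: it was 1 without mock replicate 3 and 5 without Nrf2 siRNA replicate 3. The median difference of the chains was −0.03 against NS siRNA and 0.02 against mock, beside −0.05 and −0.02 over all genes.

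NS siRNA also moved chains. Against mock, it had 6 chains higher (17.1%, beside 15.6% of all genes), 7 lower (20%, beside 15.2%) and 22 not called. ITGB8, ITGA11 and ITGA2 passed 1.5-fold in that comparison, 8.57% of the chains beside 3.77% of all genes. The 3 comparisons share arrays, so a difference between NS siRNA and mock enters the comparison of Nrf2 siRNA with NS siRNA with the opposite sign. For that reason each chain is given against both controls. In 7 chains all 3 Nrf2 siRNA arrays lay above all 6 control arrays (20%, beside 14.9% of all genes): ITGA6, ITGB4, ITGA10, ITGB5, ITGB8, LAMB1 and LAMC1. In 3 chains, ITGAV, ITGA9 and LAMC3, they all lay below (8.57%, beside 17%), and the other 25 overlapped with the controls.

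**Figure D1:**
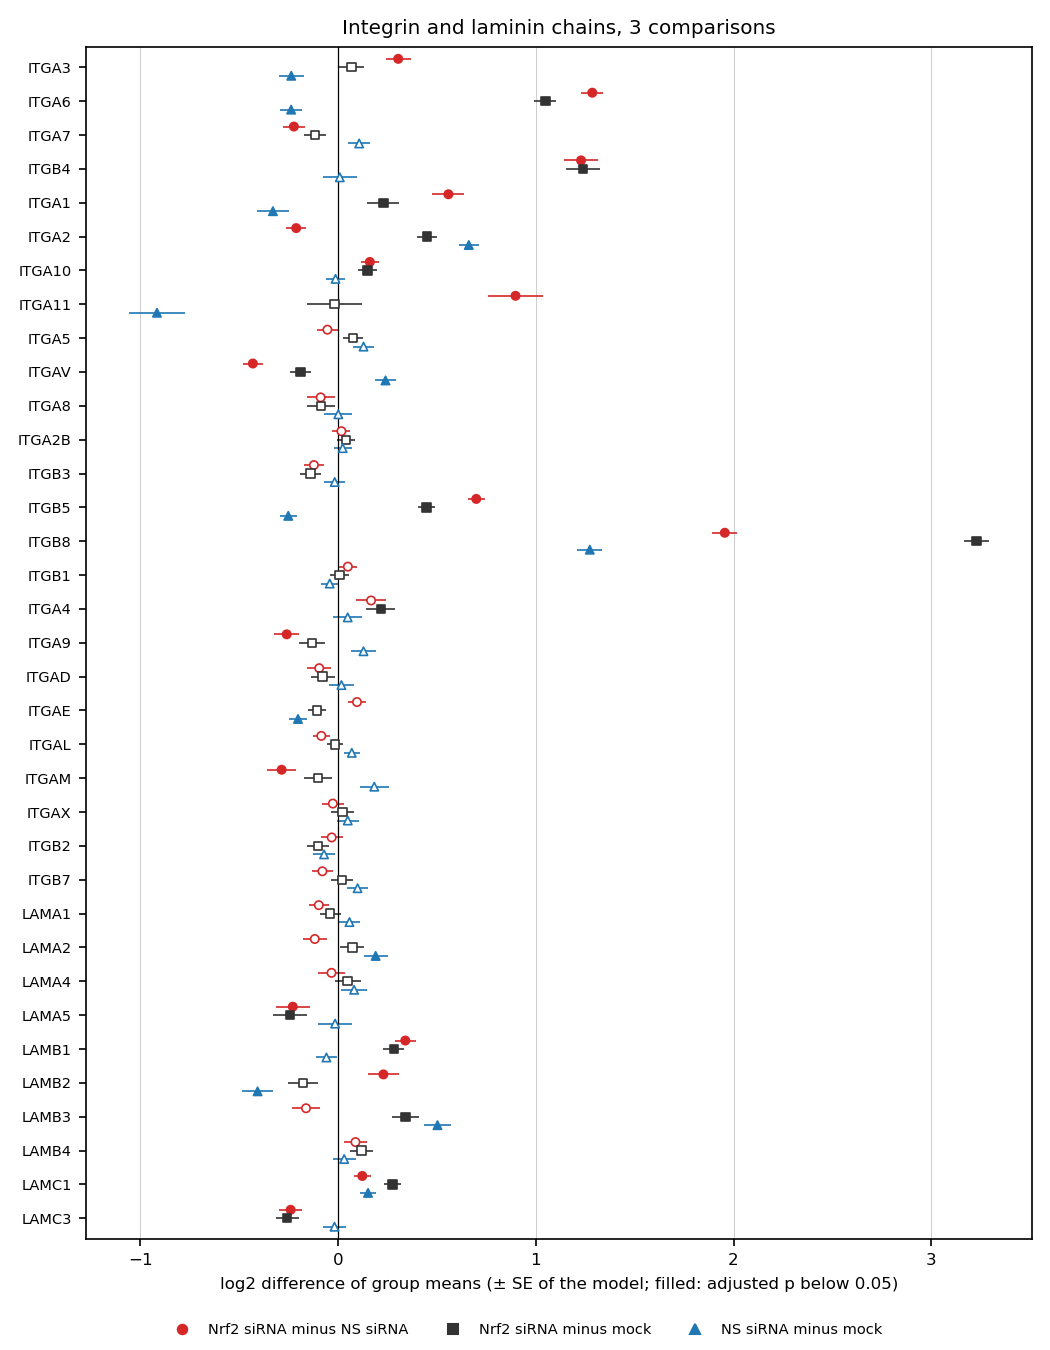
Log2 difference of group means (x axis, ± SE of the model) for each of the 35 chains (y axis), with 1 symbol for each of the 3 comparisons and filled symbols for an adjusted p below 0.05. ITGB8 stands farthest right, at 1.96 against NS siRNA and 3.23 against mock, ITGA6 and ITGB4 lie above 1 against both controls, and ITGA11 and ITGA2 each differ between NS siRNA and mock, by −0.92 and 0.66.

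Promoter sequence was read from RefSeq (GRCh38.p14) to show the bases before gene starts. The windows printed are examples. ITGB8, ITGA6 and ITGB5 were called higher against both controls, and LAMA4 only on a probe set that did not stand for the gene. ITGA1, ITGA10, LAMB1 and LAMC1 were also called higher against both, as was ITGB1 on a probe set that did not stand for the gene. The windows of these chains are not printed. NRF2 binds antioxidant response elements (ARE), written here as TGANNNNGC and searched on both strands. Windows of 250 bases before the start were held for 24 of the 35 chains, 31 windows in all, and ITGB4 was not among them. The letters occurred in 12 of the 31 windows (38.7%), beside 35.2% of all 35116 promoter windows of that length. The AP-1 letters TGANTCA, which can overlap the ARE letters, occurred in 1 (3.23%, beside 6.57%), and the GC box GGGCGG in 16 (51.6%, beside 42.6%). The windows of ITGB8 (chr7:20330650-20330899, + strand), ITGA6 (chr2:172427336-172427585, + strand), ITGB5 (chr3:124901419-124901668, − strand) and LAMA4 (chr6:112254568-112254817, − strand) follow, 5′ to 3′ on the gene's strand, with ARE letters in capitals.
ITGB8: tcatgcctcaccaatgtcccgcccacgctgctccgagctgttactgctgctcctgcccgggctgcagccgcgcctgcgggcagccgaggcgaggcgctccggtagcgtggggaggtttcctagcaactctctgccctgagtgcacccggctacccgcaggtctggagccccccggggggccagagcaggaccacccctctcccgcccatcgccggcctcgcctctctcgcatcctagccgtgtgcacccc
ITGA6: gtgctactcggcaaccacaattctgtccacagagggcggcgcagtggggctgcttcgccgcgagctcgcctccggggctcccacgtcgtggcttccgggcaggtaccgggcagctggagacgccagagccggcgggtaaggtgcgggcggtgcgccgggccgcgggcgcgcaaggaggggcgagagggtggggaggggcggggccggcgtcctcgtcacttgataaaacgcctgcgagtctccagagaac
ITGB5: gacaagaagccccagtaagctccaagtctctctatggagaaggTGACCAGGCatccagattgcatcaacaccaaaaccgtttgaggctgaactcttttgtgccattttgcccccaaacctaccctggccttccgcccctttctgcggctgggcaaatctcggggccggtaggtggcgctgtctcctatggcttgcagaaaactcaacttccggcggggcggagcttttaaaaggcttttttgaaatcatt
LAMA4: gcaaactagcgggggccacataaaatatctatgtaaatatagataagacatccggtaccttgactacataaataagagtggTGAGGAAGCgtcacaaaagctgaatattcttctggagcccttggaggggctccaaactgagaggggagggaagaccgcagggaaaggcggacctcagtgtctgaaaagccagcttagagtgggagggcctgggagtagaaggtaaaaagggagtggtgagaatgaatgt
ITGB5 has 3 windows, of which the printed one holds the letters once, beginning 207 bases before the start. The LAMA4 window holds them once, 169 bases before the start. They were not in the other ITGB5 windows, the ITGB8 window or either ITGA6 window, which says only that these letters are not in those bases. Of the windows not printed, those of ITGA1 and LAMB1 hold the letters and those of ITGA10 and LAMC1 do not. One ITGB1 window holds them and the other does not. A match is a description of letters, and binding was not measured.

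Among RGD receptor chains, ITGB8, on the probe set that stood for it, rose most of all 35 chains in both comparisons with Nrf2 siRNA. That probe set was the brightest of the gene only through the Nrf2 siRNA arrays, as set out below. ITGB8 pairs with ITGAV in a receptor that binds the latent form of TGF-beta on its RGD motif. Its level was 5.18, 5.33 and 5.31 in mock, 6.58, 6.56 and 6.49 with NS siRNA, and 8.52, 8.61 and 8.37 with Nrf2 siRNA. The 3 groups did not overlap, with mock lowest, NS siRNA between and Nrf2 siRNA highest, and the mock and NS siRNA arrays lay below their array medians. The group means were 5.27 ± 0.08, 6.55 ± 0.05 and 8.50 ± 0.12 (SD, n = 3). ITGB8 was 3.88-fold higher with Nrf2 siRNA than with NS siRNA (1.96 ± 0.06 SE, limma adjusted p = 1.34e-10). It was 9.37-fold higher than in mock (3.23 ± 0.06, limma adjusted p = 5.92e-12), and 2.42-fold higher with NS siRNA than in mock (1.27 ± 0.06, limma adjusted p = 1.82e-08).

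The other ITGB8 probe sets did not repeat that size. The one that stood for the gene, 226189_at, was brightest by its mean over all 9 arrays, the Nrf2 siRNA arrays included. In mock, at 5.27, it was below 211488_s_at (6.37), 242982_x_at (6.25) and 1563010_at (5.96). With NS siRNA, at 6.55, it was above them (6.41, 6.11 and 5.95). Its choice thus drew in part on the arrays where it was highest. Of the 4 others, 205816_at was called in all 3 comparisons with the same signs: 0.18 against NS siRNA (limma adjusted p = 0.0293 over the 41091 probe sets), 0.43 against mock (limma adjusted p = 0.000148) and 0.25 for NS siRNA against mock (limma adjusted p = 0.00879). The probe sets 211488_s_at, 242982_x_at and 1563010_at were not called in any comparison, with differences of −0.04, 0.13 and 0.00 against NS siRNA. ITGB8-AS1, an antisense transcript of the locus that is no chain, was at −0.03 against NS siRNA (limma adjusted p = 0.695).

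ITGB5 and ITGAV, which form another RGD receptor, moved in opposite directions after Nrf2 siRNA. ITGB5, a beta chain of vitronectin receptors, was at 12.58, 12.54 and 12.51 in mock, 12.30, 12.26 and 12.33 with NS siRNA, and 13.01, 13.01 and 12.97 with Nrf2 siRNA. All Nrf2 siRNA arrays were above all controls, and NS siRNA was the lowest group. ITGB5 was 1.62-fold higher than with NS siRNA (0.70 ± 0.04 SE, limma adjusted p = 3.65e-08) and 1.36-fold higher than in mock (0.45 ± 0.04, limma adjusted p = 4.09e-06). It was lower with NS siRNA than in mock (−0.25 ± 0.04, limma adjusted p = 0.000608). A further ITGB5 probe set, 201124_at, gave 1.07 and 0.94 against the same controls, both called. It was not called for NS siRNA against mock (−0.13, limma adjusted p = 0.096). The other pair, 214020_x_at and 214021_x_at, were called higher against NS siRNA (0.20 and 0.49) and not against mock (0.12, limma adjusted p = 0.239, and 0.17, limma adjusted p = 0.169).

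ITGAV is the alpha chain that pairs with ITGB8, ITGB5 and several other beta chains. Its level was 12.20, 12.31 and 12.38 in mock, 12.55, 12.52 and 12.54 with NS siRNA, and 12.05, 12.12 and 12.14 with Nrf2 siRNA. The Nrf2 siRNA arrays were the lowest 3 and the NS siRNA arrays the highest 3. ITGAV fell by 0.43 ± 0.05 SE against NS siRNA (1.35-fold, limma adjusted p = 1.56e-05) and by 0.19 ± 0.05 against mock (1.14-fold, limma adjusted p = 0.0119). The call against mock was lost without mock replicate 3 (limma adjusted p = 0.0595). NS siRNA raised it over mock by 0.24 (limma adjusted p = 0.00313).

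The other 4 RGD receptor chains were not called in any comparison: ITGA5, the fibronectin receptor chain, ITGA8, and the pair of the platelet fibrinogen receptor, ITGA2B and ITGB3. Their differences ran from −0.12 to 0.02 against NS siRNA and from −0.14 to 0.08 against mock. ITGB3 was the nearest to the threshold, with limma adjusted p = 0.0732 against NS siRNA and 0.061 against mock. Its probe set 204627_s_at was called lower in both, at −0.47 (limma adjusted p = 0.00115) and −0.42 (limma adjusted p = 0.00361). Another ITGB3 probe set, 204628_s_at, was called lower against mock (−0.22, limma adjusted p = 0.0395). The ITGA8 probe set 214265_at was called lower against NS siRNA (−0.21, limma adjusted p = 0.016). Single arrays bear on these misses. Without Nrf2 siRNA replicate 1, ITGB3 was called lower against both controls (−0.17 and −0.19) and ITGA8 lower against NS siRNA (−0.17, limma adjusted p = 0.0372). Without mock replicate 2, ITGB3 was called lower against mock (limma adjusted p = 0.0481) and ITGA5 higher with NS siRNA than in mock (limma adjusted p = 0.0193).

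**Figure D2:**
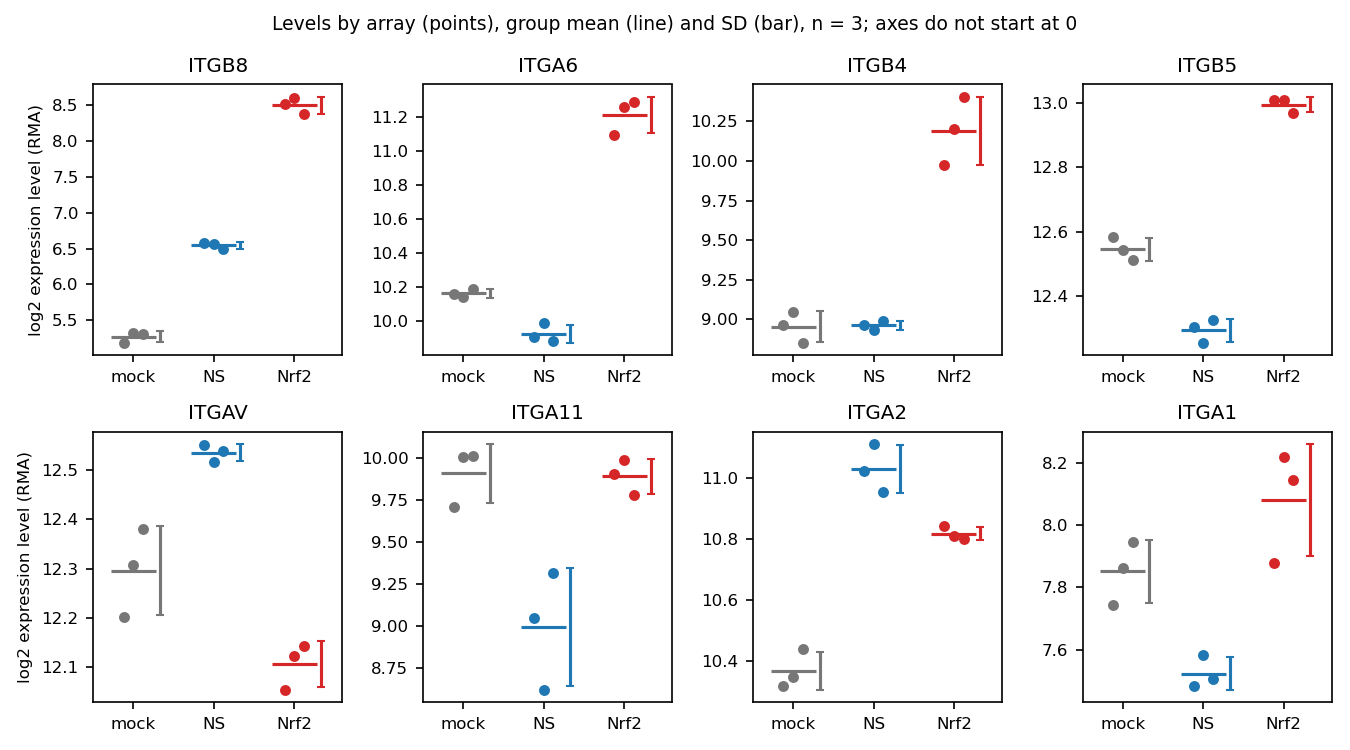
Log2 levels (y axis, not starting at 0) of 8 integrin chains on each array of the 3 groups (x axis), with the group mean as a line and the SD as a bar, n = 3. ITGB8 climbs from 5.27 in mock through 6.55 to 8.50, and ITGB4 is high only with Nrf2 siRNA. ITGA11 is low only with NS siRNA, where its mean lies 0.90 below that of Nrf2 siRNA and 0.92 below that of mock.

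Of the laminin receptor chains, ITGA6 and ITGB4, which pair with each other in the receptor that anchors epithelial cells through hemidesmosomes, were both more than 2-fold higher with Nrf2 siRNA than in either control. ITGA6 was at 10.16, 10.14 and 10.19 in mock, 9.91, 9.99 and 9.89 with NS siRNA, and 11.09, 11.26 and 11.29 with Nrf2 siRNA. The Nrf2 siRNA arrays were all above the controls, and the NS siRNA arrays all below mock. ITGA6 was 2.44-fold higher than with NS siRNA (1.29 ± 0.06 SE, limma adjusted p = 1.66e-09) and 2.07-fold higher than in mock (1.05 ± 0.06, limma adjusted p = 2.15e-08). With NS siRNA it was lower than in mock (−0.24 ± 0.06, limma adjusted p = 0.00575). Its other probe set, 215177_s_at, gave 1.38, 1.11 and −0.27, each called.

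ITGB4, whose long inner tail binds the hemidesmosome plaque, was at 8.96, 9.04 and 8.85 in mock and at 8.96, 8.93 and 8.99 with NS siRNA. With Nrf2 siRNA it was at 9.97, 10.20 and 10.40, all above the controls, and the 2 control groups overlapped. The differences were 1.23 ± 0.09 SE against NS siRNA (2.34-fold, limma adjusted p = 1.44e-07) and 1.24 ± 0.09 against mock (2.36-fold, limma adjusted p = 2.85e-07). NS siRNA against mock gave 0.01 ± 0.09 (limma adjusted p = 0.951). Of its 4 other probe sets, 204989_s_at (0.94 and 0.83) and 211905_s_at (0.72 and 0.67) were called against both controls. The remaining pair, 230704_s_at and 214292_at, were not, at −0.20 and 0.14 against NS siRNA.

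ITGA3 and ITGA7, which pair with ITGB1 to bind laminin, gave smaller values. ITGA3, a laminin receptor chain of many epithelia, was at 10.69, 10.85 and 10.71 in mock, 10.60, 10.49 and 10.46 with NS siRNA, and 10.72, 10.81 and 10.93 with Nrf2 siRNA. It was higher than with NS siRNA (0.30 ± 0.06 SE, limma adjusted p = 0.00166), but its arrays overlapped with mock and the difference there was 0.07 (limma adjusted p = 0.475). NS siRNA lowered it against mock (−0.24, limma adjusted p = 0.0136), a call lost without NS siRNA replicate 3 (limma adjusted p = 0.0565) or mock replicate 2 (limma adjusted p = 0.0641). ITGA7, best known from muscle, was lower than with NS siRNA (−0.22, limma adjusted p = 0.00537) and not called against mock (−0.12, limma adjusted p = 0.142). Without Nrf2 siRNA replicate 1 it was called there too (−0.17, limma adjusted p = 0.0336).

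ITGB1, the beta chain shared by most laminin, collagen and fibronectin receptors, was not called in any comparison. It was at 14.09, 14.02 and 14.10 in mock, 14.07, 14.00 and 14.01 with NS siRNA, and 14.05, 14.05 and 14.13 with Nrf2 siRNA, and the groups overlapped. The differences of Nrf2 siRNA were 0.05 ± 0.05 SE against NS siRNA (limma adjusted p = 0.393) and 0.01 against mock (limma adjusted p = 0.921). Of its 6 other probe sets, 3 were called higher against NS siRNA: 1553530_a_at at 0.29, 1553678_a_at at 0.24 and 215878_at at 0.21. Of those 3, 1553530_a_at was called against mock (0.21, limma adjusted p = 0.00224).

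**Figure D3:**
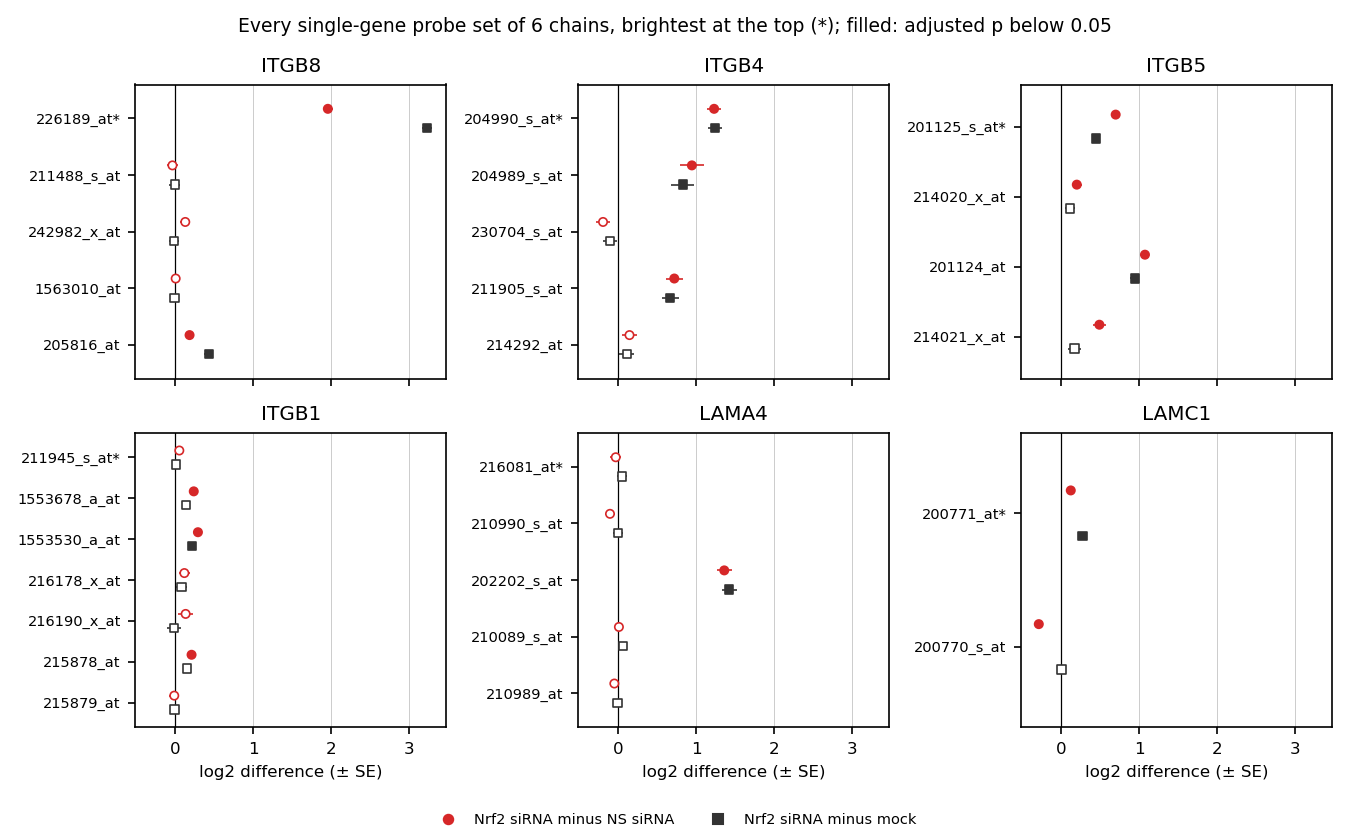
Log2 difference (x axis, ± SE) of every single-gene probe set of 6 chains (y axis, an asterisk on the one that stands for the gene) for Nrf2 siRNA against NS siRNA (circles) and against mock (squares), filled where the adjusted p over 41091 probe sets was below 0.05. ITGB5 probe sets all lie right of 0, ITGB8 and LAMA4 each have a single probe set with a difference above 1, and the LAMC1 pair lies on opposite sides of 0 against NS siRNA.

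The 4 collagen receptor alpha chains pair with ITGB1, and 3 of them (ITGA1, ITGA2 and ITGA11) also differed between the control groups. ITGA11, a fibrillar collagen receptor best known from fibroblasts, was at 9.71, 10.01 and 10.01 in mock, 9.05, 8.62 and 9.32 with NS siRNA, and 9.90, 9.99 and 9.78 with Nrf2 siRNA. The NS siRNA arrays were the lowest 3, and Nrf2 siRNA overlapped with mock. ITGA11 was thus 1.86-fold higher with Nrf2 siRNA than with NS siRNA (0.90 ± 0.14 SE, limma adjusted p = 0.000161) and at −0.02 ± 0.14 against mock (limma adjusted p = 0.945). NS siRNA was 1.89-fold below mock (−0.92 ± 0.14, limma adjusted p = 0.000275). Of its other probe sets, 233335_at gave 0.80 against NS siRNA and −0.28 against mock (limma adjusted p = 0.0333), so that it was called lower than mock.

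ITGA2 was the reverse case. This collagen receptor chain of epithelial cells and platelets was at 10.32, 10.34 and 10.44 in mock, 11.02, 11.11 and 10.95 with NS siRNA, and 10.84, 10.81 and 10.80 with Nrf2 siRNA. The groups did not overlap, and Nrf2 siRNA lay between mock and NS siRNA. ITGA2 was higher with NS siRNA than in mock (1.58-fold, 0.66 ± 0.05 SE, limma adjusted p = 9.39e-07) and higher with Nrf2 siRNA than in mock (1.37-fold, 0.45 ± 0.05, limma adjusted p = 2.06e-05). It was lower with Nrf2 siRNA than with NS siRNA (−0.21 ± 0.05, limma adjusted p = 0.00456). Its other probe set, 205032_at, was called for NS siRNA against mock (0.35, limma adjusted p = 0.00536) and in neither comparison with Nrf2 siRNA.

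ITGA1, which binds basement membrane collagen, was at 7.74, 7.86 and 7.95 in mock, 7.48, 7.58 and 7.50 with NS siRNA, and 7.88, 8.22 and 8.14 with Nrf2 siRNA. Nrf2 siRNA was above NS siRNA (1.47-fold, 0.56 ± 0.08 SE, limma adjusted p = 8.22e-05) and overlapped with mock. Its difference from mock was 0.23 ± 0.08 (limma adjusted p = 0.0452), and that call was lost in 7 of the 9 fits that left out an array, at limma adjusted p between 0.0549 and 0.186. It stood without mock replicate 3 or Nrf2 siRNA replicate 1. NS siRNA lowered ITGA1 against mock by 0.33 (limma adjusted p = 0.0075). ITGA10, a collagen receptor chain known from cartilage, was at 8.15 to 8.27 on the control arrays and at 8.35, 8.35 and 8.38 with Nrf2 siRNA. That was 0.16 against NS siRNA (limma adjusted p = 0.0121) and 0.15 against mock (limma adjusted p = 0.0253). The first was lost without NS siRNA replicate 1 (limma adjusted p = 0.0517), and the second without Nrf2 siRNA replicate 3, mock replicate 2 or mock replicate 3 (limma adjusted p of 0.0696, 0.0937 and 0.0657).

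ITGA4 and ITGA9, alpha chains that bind VCAM1, fibronectin or tenascin, gave small differences. ITGA4 was at 6.60 to 6.78 on the control arrays and at 6.73, 6.88 and 7.02 with Nrf2 siRNA. It was called against mock (0.22, limma adjusted p = 0.0396) and not against NS siRNA (0.17, limma adjusted p = 0.0807). The call against mock was lost without NS siRNA replicate 3, either of Nrf2 siRNA replicates 2 and 3, or either of mock replicates 1 and 2, at limma adjusted p from 0.0509 to 0.166, and without Nrf2 siRNA replicate 1 it was called against NS siRNA (limma adjusted p = 0.0151). ITGA9 was at 7.35 to 7.62 on the control arrays and 7.26 to 7.27 with Nrf2 siRNA, which left every Nrf2 siRNA array below. It was lower against NS siRNA (−0.26, limma adjusted p = 0.00521) and at −0.13 against mock (limma adjusted p = 0.154). As the mean of its probe sets it was not called against NS siRNA (−0.035, limma adjusted p = 0.553). Without NS siRNA replicate 1 it was called lower against mock (limma adjusted p = 0.0438) and higher with NS siRNA than in mock (limma adjusted p = 0.00746).

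The next 7 integrin chains are best known from white blood cells. ITGAD, ITGAL, ITGAX, ITGB2 and ITGB7 were not called in any comparison, with differences between −0.10 and 0.10. ITGAM, the alpha chain of a complement receptor, was lower with Nrf2 siRNA than with NS siRNA (−0.28, limma adjusted p = 0.00567), and its other probe set gave −0.66 (limma adjusted p = 4.06e-05). That other probe set was called higher with NS siRNA than in mock (0.44, limma adjusted p = 0.00185). It was not called for Nrf2 siRNA against mock (−0.21, limma adjusted p = 0.0852). Against mock ITGAM was at −0.10 (limma adjusted p = 0.33) and was called lower there without Nrf2 siRNA replicate 3 (−0.18, limma adjusted p = 0.0472). NS siRNA against mock gave 0.18 (limma adjusted p = 0.0749), called without NS siRNA replicate 1 (limma adjusted p = 0.0467) or Nrf2 siRNA replicate 3 (limma adjusted p = 0.0296). ITGAE, which binds E-cadherin on epithelia, was at 11.92 to 12.20 over all arrays. It was lower with NS siRNA than in mock (−0.20, limma adjusted p = 0.00395) and not called with Nrf2 siRNA.

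Laminin chains were called in both directions, none at 1.5-fold or more on the probe set that stood for the gene. Of the 10, 3 were higher and 2 lower in each comparison with Nrf2 siRNA (30% and 20%). All genes had 21% and 26.6% against NS siRNA and 16.4% and 16.7% against mock. The higher chains were LAMB1, LAMB2 and LAMC1 against NS siRNA and LAMB1, LAMB3 and LAMC1 against mock. NS siRNA against mock had 3 higher and 1 lower (30% and 10%, beside 15.6% and 15.2%). LAMB1, the beta chain of the widespread laminins, was at 11.20, 11.20 and 11.17 in mock, 11.14, 11.07 and 11.18 with NS siRNA, and 11.38, 11.47 and 11.56 with Nrf2 siRNA. Its Nrf2 siRNA arrays were above all controls. LAMB1 was 1.27-fold higher against NS siRNA (0.34 ± 0.05 SE, limma adjusted p = 0.000133) and 1.22-fold higher against mock (0.28 ± 0.05, limma adjusted p = 0.000963), and its second probe set was called higher in both, at 0.42 and 0.23.

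LAMC1, the gamma chain of most laminins, gave opposite signs on its 2 probe sets. The one that stood for it, 200771_at, was at 11.85, 11.87 and 11.83 in mock, 11.99, 11.99 and 12.03 with NS siRNA, and 12.16, 12.08 and 12.13 with Nrf2 siRNA, in 3 groups that did not overlap. It was higher against NS siRNA by 0.12 (limma adjusted p = 0.0296) and against mock by 0.28 (limma adjusted p = 0.000233). The other, 200770_s_at, was at −0.29 against NS siRNA (limma adjusted p = 0.000229) and 0.00 against mock (limma adjusted p = 0.981). The sign of LAMC1 against NS siRNA thus depended on the probe set, and it counts among the higher chains through the brighter one. The call on 200771_at was also lost without NS siRNA replicates 1 or 2 or Nrf2 siRNA replicates 1 or 3, at limma adjusted p from 0.0624 to 0.0866. Its call for NS siRNA against mock (0.15, limma adjusted p = 0.0152) was lost without NS siRNA replicate 3 (limma adjusted p = 0.0544) or mock replicate 3 (limma adjusted p = 0.0541).

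LAMB3, a chain of the laminin that hemidesmosomes hold on to, was at 8.88, 8.93 and 8.64 in mock, 9.37, 9.29 and 9.30 with NS siRNA, and 9.10, 9.13 and 9.25 with Nrf2 siRNA. Mock was the lowest group and NS siRNA the highest. LAMB3 was higher than mock with NS siRNA (0.50, limma adjusted p = 0.000134) and with Nrf2 siRNA (0.34, limma adjusted p = 0.00212). Nrf2 siRNA against NS siRNA was not called (−0.16, limma adjusted p = 0.0772). It was called lower without mock replicate 3 (limma adjusted p = 0.023) and in 2 other settings, after quantile normalization and with the 2 groups fitted alone. LAMB2, the other beta chain of mature basement membranes, was lower with NS siRNA than in mock (−0.41, limma adjusted p = 0.00134) and higher with Nrf2 siRNA than with NS siRNA (0.23, limma adjusted p = 0.0267). That second call was lost without NS siRNA replicate 1, NS siRNA replicate 2 or Nrf2 siRNA replicate 3 (limma adjusted p of 0.0542, 0.0892 and 0.114). Against mock LAMB2 was at −0.18 (limma adjusted p = 0.103), and it was called lower without Nrf2 siRNA replicate 3 (limma adjusted p = 0.045) or mock replicate 1 (limma adjusted p = 0.0392).

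LAMC3 was at 7.56 to 7.72 on the control arrays and at 7.49, 7.35 and 7.37 with Nrf2 siRNA, below all of them. LAMC3 was lower against NS siRNA (−0.24, limma adjusted p = 0.00468) and against mock (−0.26, limma adjusted p = 0.00426). These levels lie close to the array medians of 7.51 to 7.57, and with Nrf2 siRNA below them. Tested singly, both of its 2 probe sets were called lower against NS siRNA and 1 of them against mock. LAMA5, the alpha chain of the main laminin of adult epithelia, was at 10.37, 10.49 and 10.72 with Nrf2 siRNA and at 10.68 to 10.93 on the control arrays. It was called lower in both comparisons, but close to the threshold (−0.23, limma adjusted p = 0.0431, and −0.24, limma adjusted p = 0.0451). Leaving out any of the NS siRNA replicates, Nrf2 siRNA replicate 1 or 2, or mock replicate 3 ended both calls, and leaving out mock replicate 2 ended the one against mock (limma adjusted p from 0.0515 to 0.181 over these fits). LAMA1 and LAMB4 were not called in any comparison. LAMA2, known from muscle, was called for NS siRNA against mock (0.19, limma adjusted p = 0.0304). That call was lost without NS siRNA replicate 1 or 3 or mock replicate 1 or 2 (limma adjusted p from 0.0752 to 0.118), and without NS siRNA replicate 2 LAMA2 was called lower with Nrf2 siRNA than with NS siRNA (limma adjusted p = 0.0166).

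LAMA4, the alpha chain of endothelial and mesenchymal laminins, differed between its 5 probe sets. The brightest, 216081_at, was at 7.46 to 7.67 on the control arrays and 7.47 to 7.74 with Nrf2 siRNA, with differences of −0.03 (limma adjusted p = 0.707) and 0.05 (limma adjusted p = 0.639). The probe set 202202_s_at was at 6.54, 6.76 and 6.50 in mock, 6.74, 6.82 and 6.44 with NS siRNA, and 7.93, 8.11 and 8.03 with Nrf2 siRNA. On it every Nrf2 siRNA array was above the controls. It rose 2.57-fold against NS siRNA (1.36 ± 0.10 SE, limma adjusted p = 1.52e-07) and 2.68-fold against mock (1.42 ± 0.10, limma adjusted p = 2.15e-07). The other 3 were not called. Over all 35 chains, 10 had 1 probe set, and 7 that were not called against NS siRNA, LAMA4 and ITGB1 among them, had another probe set that was. In 2 chains, LAMC1 and ITGB2, probe sets were called in opposite directions against NS siRNA.

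The genes around the chains came from lists of the adhesion complex, the basement membrane and integrin ligands. Each count is to be read against all genes, of which 21% were higher and 26.6% lower against NS siRNA, 16.4% and 16.7% against mock, and 15.6% and 15.2% for NS siRNA against mock. Of 31 adhesion complex genes measured, 11 were higher and 6 lower against NS siRNA, 6 higher and 4 lower against mock, and 5 higher and 10 lower for NS siRNA against mock. TNS1, which links integrins to actin, was 3.06-fold higher against NS siRNA (1.61, limma adjusted p = 2.47e-08) and at −0.29 against mock (limma adjusted p = 0.0303), with −1.91 for NS siRNA against mock. TGFB1I1, a paxillin relative of focal adhesions, had 1.19 against NS siRNA (limma adjusted p = 4.46e-09), 0.07 against mock (limma adjusted p = 0.398) and −1.12 for NS siRNA against mock. The arrays of TGFB1I1 with NS siRNA were at 9.27, 9.29 and 9.29, below all 6 others. KANK2, an adapter at adhesion edges, was higher against NS siRNA (0.98, limma adjusted p = 1.73e-08) and against mock (0.24, limma adjusted p = 0.00405).

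Of 19 basement membrane genes other than laminins, 8 were higher and 1 lower against NS siRNA, 10 higher and 2 lower against mock, and 2 higher and 11 lower for NS siRNA against mock. The median differences were 0.09, 0.17 and −0.21, beside −0.05, −0.02 and 0.03 over all genes. FRAS1, a matrix protein of the epithelial basement membrane, was at 8.21, 8.22 and 8.21 in mock, 7.56, 7.62 and 7.69 with NS siRNA, and 9.82, 10.06 and 10.11 with Nrf2 siRNA. It was 5.18-fold higher against NS siRNA (limma adjusted p = 6.08e-11) and 3.43-fold higher against mock. NID1, the nidogen that joins laminin to collagen IV, was 4.14-fold higher against NS siRNA (limma adjusted p = 1.26e-10) and 2.15-fold against mock, and SMOC1 was 1.86-fold and 1.61-fold higher. In all 3 genes every Nrf2 siRNA array was above the controls and NS siRNA was the lowest group.

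Of 3 hemidesmosome genes measured beside the chains, DST, the plaque protein that binds keratin filaments, was higher against NS siRNA (0.66, limma adjusted p = 4.35e-08) and against mock (0.52, limma adjusted p = 7.13e-07). PLEC and CD151 were not called in either. Of 20 other integrin ligands, 5 were higher and 5 lower against NS siRNA, near the shares of all genes, with 6 higher and 3 lower against mock, and 7 higher and 2 lower for NS siRNA against mock. SPP1, an RGD ligand of ITGAV receptors also called osteopontin, was at 13.31 to 13.44 on the control arrays and at 11.88, 11.76 and 11.72 with Nrf2 siRNA. It fell 2.92-fold against NS siRNA (limma adjusted p = 1.22e-10) and 3.05-fold against mock. FBN1, a microfibril protein with an RGD motif, rose 3.61-fold against NS siRNA (limma adjusted p = 2.46e-10) and 3.30-fold against mock. CCN1, another matrix ligand, was lower against NS siRNA (−0.95, limma adjusted p = 1.56e-07) and at 0.00 against mock (limma adjusted p = 0.992).

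A list of latent TGF-beta and its carriers held 9 genes, not all of them ligands of the ITGAV and ITGB8 receptor. Against NS siRNA, 3 were higher and 1 lower (beside 21% and 26.6% of all genes). Against mock, 1 was higher and 4 lower (beside 16.4% and 16.7%). NS siRNA against mock had 1 higher and 4 lower (beside 15.6% and 15.2%). LTBP1, which stores latent TGF-beta in the matrix, was at 11.41, 11.48 and 11.41 in mock, 10.94, 10.91 and 10.91 with NS siRNA, and 12.21, 12.21 and 12.22 with Nrf2 siRNA, and was 2.45-fold higher against NS siRNA (limma adjusted p = 1.26e-10) and 1.71-fold against mock. TGFB1 was 2.28-fold higher against NS siRNA (limma adjusted p = 8.54e-10) but lower than mock (−0.30, limma adjusted p = 0.000355), with −1.49 for NS siRNA against mock. TGFB2 was lower against both controls (−0.77 and −0.55).

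**Figure D4:**
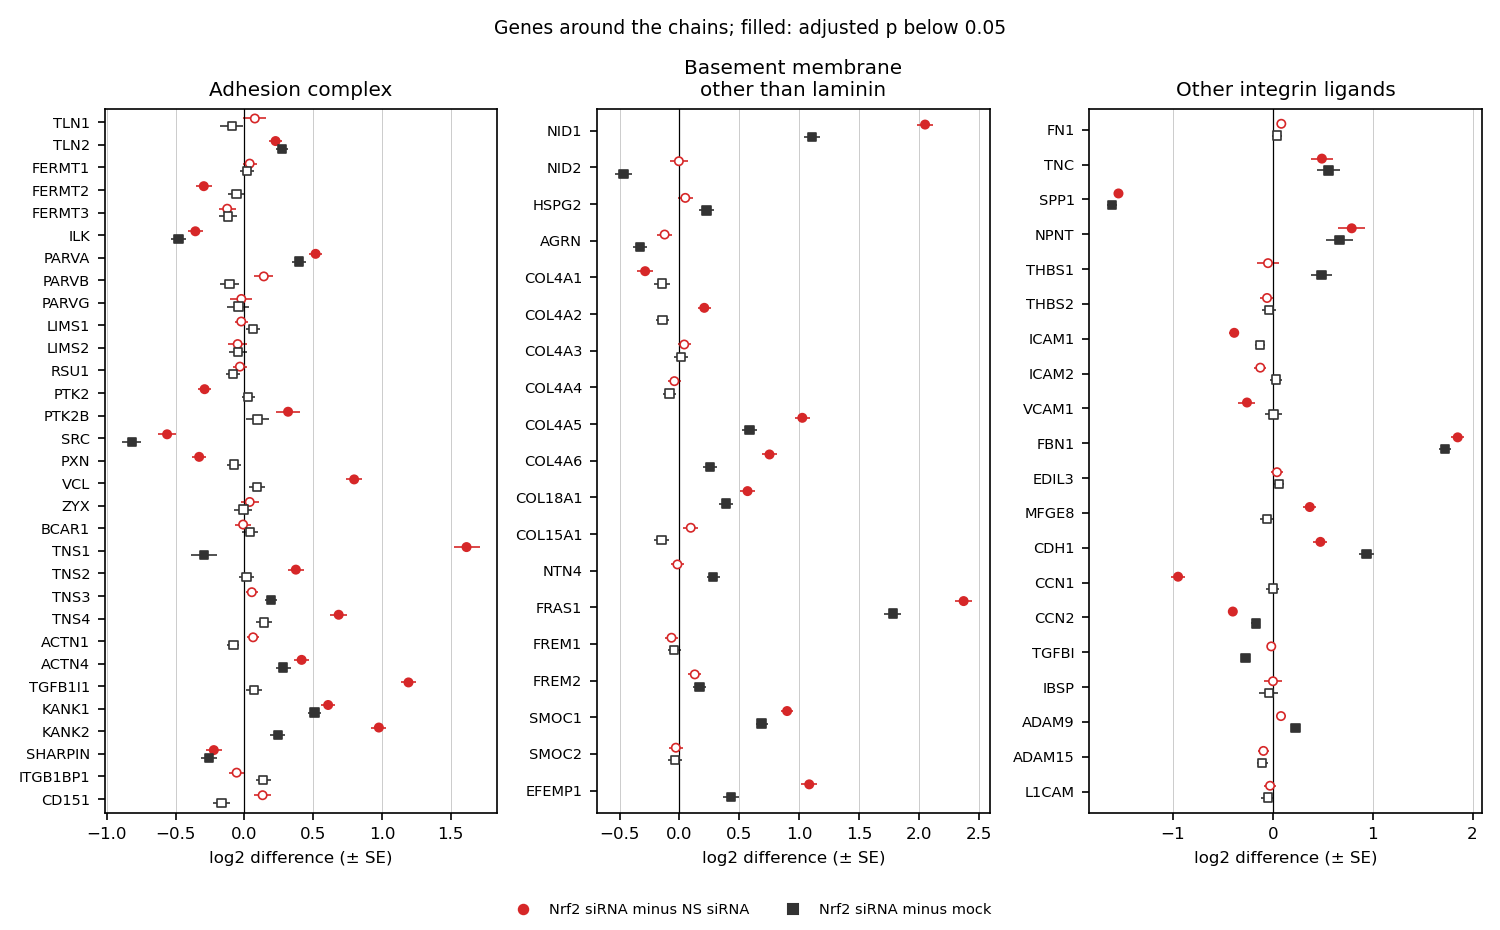
Log2 difference (x axis, ± SE) of the measured genes of 3 lists (y axis) for Nrf2 siRNA against NS siRNA (circles) and against mock (squares), filled where the adjusted p was below 0.05. FRAS1 and NID1 lead the basement membrane list, SPP1 and FBN1 stand at opposite ends of the ligand list, and TNS1 lies on opposite sides of 0 in the 2 comparisons.

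Markers of other cells were read beside the chains. Their counts are to be read against all genes, of which 21% were higher and 26.6% lower against NS siRNA. The shares were 16.4% and 16.7% against mock, and 15.6% and 15.2% for NS siRNA against mock. In bulk RNA, more cells of a type and more RNA per cell cannot be told apart. Of 8 fibroblast markers, 4 were higher and 0 lower against NS siRNA, 3 higher and 0 lower against mock, and 0 higher and 3 lower for NS siRNA against mock. Their mean level per array ran from 7.88 to 8.01 in mock, 7.63 to 7.69 with NS siRNA and 8.38 to 8.46 with Nrf2 siRNA, and 2 of the 8 lay below the array medians. LUM, a matrix proteoglycan, was 8.06-fold higher against NS siRNA (limma adjusted p = 1.1e-10) and 4.95-fold higher against mock, COL3A1 3.33-fold and 1.99-fold, and COL1A1 2.17-fold higher against NS siRNA and at 0.18 against mock (limma adjusted p = 0.176). The median of the basement membrane list had the same signs in the 3 comparisons, and the part of these markers in that list's result was not tested. ITGA11 rose with them against NS siRNA but not against mock.

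Of 6 A549 epithelial markers, 3 were higher and 1 lower against NS siRNA (beside 21% and 26.6% of all genes). Against mock, 4 were higher and 1 lower (beside 16.4% and 16.7%). For NS siRNA against mock, 4 were higher and 0 lower (beside 15.6% and 15.2%), and none lay below the array medians. The same shares apply to the other marker lists below. Their mean level was 11.84 to 11.92 in mock, 12.21 to 12.25 with NS siRNA and 12.48 to 12.62 with Nrf2 siRNA. KRT19, an epithelial keratin, rose 2.22-fold against NS siRNA (limma adjusted p = 2.67e-09) and 3.87-fold against mock, and EPCAM and CDH1 were higher against both controls. The mean level of these markers had the same order of groups as ITGB8, but the markers did not all move that way. Against NS siRNA 1 was lower and 2 were not called, and against mock 1 was lower. KRT19, which enters that mean, is also among the genes that followed ITGB8 most closely. The part of these markers in the ITGB8 result was not tested. Of 6 leukocyte markers, 1 was higher and 2 lower against NS siRNA and 1 higher against mock, with CD14 at 0.96 and 0.99, and LCP1 and CORO1A lower against NS siRNA by −0.31 and −0.18. Their mean level was 7.50 to 7.58 in mock, 7.66 to 7.78 with NS siRNA and 7.73 to 7.77 with Nrf2 siRNA. Of 5 platelet markers 1 (GP9) was lower against NS siRNA and 0 were called against mock, and of 6 endothelial markers 1 (CDH5) was called, at 0.19 and 0.23. The mean level on all arrays was 7.14 to 7.31 for platelet and 7.20 to 7.36 for endothelial markers.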

How the data were processed

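Total RNA of 9 A549 samples was labelled as biotinylated cRNA and read on Affymetrix arrays of 54675 probe sets. The deposited values are log2 levels made by the authors with RMA, per the submitters' processing notes; its version is not given in the sources used here. RMA scales the arrays to one another, so levels are relative. Detection calls and scan dates were not used here, so dim probe sets have no background test and no batch was examined. Of the 35 chains, 10 had a mean level below the array medians.

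Samples were grouped by title into mock, NS siRNA and Nrf2 siRNA. Control probe sets (62) and those with several genes (1801) or none named here (11721) stayed out. Symbols were updated through a RefSeq table (41037 of 41091 matched). The brightest probe set stood for a gene. A linear model over all 9 arrays with 3 group means was fitted with limma 3.58.1 (lmFit, eBayes) in R 4.3.3, without a block, and tested on simulated data. Tests of single probe sets were adjusted over the 41091. Figures used matplotlib 3.10.9 in Python 3.11.15. Transcripts that share a symbol's first letters without being chains (antisense, divergent and binding-protein genes) were left out.

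The members and the gene lists were chosen with earlier results of these data known, so no p was adjusted over a list alone. Values by array are given for chains called at 1.5-fold or more in any comparison and for others a result turned on. The 3 genes of each list with the lowest adjusted p for Nrf2 against NS siRNA were named, except where fewer were called. Alternatives were the probe set rule, 2 scalings, a filter on low means, the variance model, the arrays fitted, a replicate block, a threshold of 0.01 and leaving out each array. Same-numbered arrays of different groups had correlations of deviations from −0.21 to 0.23 over 9 pairs, 5 of them above 0.1. Differently numbered arrays were not compared, so this does not settle whether the numbers pair samples.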

Additional observations from a re-analysis of the deposited data

How the results depend on the processing

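Of 1965 differences of single chains recomputed over 19 settings, 1830 kept their side of the threshold, 84 lost a call, 46 gained one, and 5 changed sign with a call in at least 1 of the 2 settings. Of the 1830, 50 were differences not called in either setting that changed sign. The 5 sign changes with a call came from the choice of probe set. ITGB2 against NS siRNA was at 0.15 on the probe set that varied most over the arrays (by interquartile range). LAMA4 was at 0.24 as the mean of its probe sets and at 1.36 on its most variable probe set, and LAMC1 at −0.082 and −0.29. The chains lower against NS siRNA numbered 11 when each probe set counted on its own (7 otherwise). Those lower against mock numbered 5 on the most variable probe set and 1 at a threshold of 0.01 (3 otherwise), and leaving out 1 array gave 1 to 5. A replicate block gave 11 higher and 7 lower against NS siRNA, 11 and 3 against mock, and 7 and 7 for NS siRNA against mock. Apart from left-out arrays and the threshold of 0.01, 27 calls were lost and 30 gained over the settings. Against NS siRNA the losses were 2 for LAMA5 and 1 each for ITGA9, LAMB2 and LAMC1. Against mock they were 5 for ITGA1, 4 for ITGA4, 2 for LAMA5 and 1 each for ITGA10 and LAMC1, and for NS siRNA against mock 6 for LAMA2 and 1 each for ITGA1, ITGA3 and ITGB5. ITGB3 gained 4 against NS siRNA and 5 against mock, all lower.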

Other observations

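The 5 genes whose levels over the 9 arrays followed ITGB8 most closely, ranked by Pearson correlation among all 19775 genes, were DUSP4, KRT19, HAS3, ATP8B1 and EMP1. The 9 arrays fall into 3 groups, so the ranking reflects the 3 group means, and it is given as a description with no test. DUSP4, a phosphatase of MAP kinases, had group means of 11.16 in mock, 11.47 with NS siRNA and 11.94 with Nrf2 siRNA. HAS3, a hyaluronan synthase, had 9.29, 9.94 and 10.92, and EMP1, a membrane protein of epithelia, had 8.50, 9.36 and 10.44.

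Transcripts named after integrin loci that are not chains were left out of the counts. ITGB1-DT, transcribed away from ITGB1, was higher against NS siRNA (0.42, limma adjusted p = 4.52e-05) and against mock (0.30, limma adjusted p = 0.00109). ITGB2-AS1, an antisense transcript, was also higher (0.28, limma adjusted p = 0.000699, and 0.33, limma adjusted p = 0.000346). ITGB3BP was at −0.06 against NS siRNA and lower against mock (−0.17, limma adjusted p = 0.00729).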
